A study of Mus musculus with 2 samples.

Results

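The microRNA genes described here are Mir142, Mir142b, Mir223, Mir150, Mir155, Mir146 and Mir146b, which are known from white blood cells and, in the brain, from microglia, the resident macrophages. They were taken by gene symbol and not by any measured value. Of the 1973 microRNA genes in the count tables, 6 carry a symbol of this group, and Mir142, which has no row of its own, was read from the opposite strand of Mir142b, which gives 7 genes. Small RNA was sequenced from the hindbrain of B6NCrl mice on the day of birth (postnatal day 0), with no treatment or genetic change named in the labels. The series holds 1 group of 2 libraries, each made from the whole tissue piece of a different pup, pup 3 and pup 1. The labels give both pups the same donor identifier, and the sex was not collected. No condition was compared, so the data address how much of each microRNA this tissue held at birth and how far the pups differed.

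A microRNA is cut from a hairpin precursor into a short strand that is loaded into an Argonaute protein and guides it to messenger RNAs. The seed, bases 2 to 8 of that strand, does most of the pairing with the target. Mir142 is active across blood cells, Mir223 is known from neutrophils and other myeloid cells, and Mir150 from mature lymphocytes. Mir155 and Mir146 are induced when immune cells are activated, and Mir146 is known to dampen NF-kB signalling through Irak1 and Traf6. Microglia enter the brain before birth and carry several of these microRNAs, as do white blood cells inside its vessels.

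The mature sequences below show how the listed strands differ in what they can pair with and why Mir142 needs its own treatment. They are written 5′ to 3′ from RefSeq (GRCm38.p6), with the seed in capitals. The RefSeq table used here lists 12 mature sequences for the 7 symbols, of which miR-150-3p is the 1 entry for Mir150. Where a precursor is listed with strands from both arms, reads from either arm are counted together.
miR-142a-3p: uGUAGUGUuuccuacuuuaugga
miR-142a-5p: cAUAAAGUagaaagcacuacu
miR-142b: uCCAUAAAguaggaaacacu
miR-223-3p: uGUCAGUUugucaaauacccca
miR-150-3p: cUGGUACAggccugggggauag
miR-155-5p: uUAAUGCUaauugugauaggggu
miR-146a-5p: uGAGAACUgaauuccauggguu
miR-146b-5p: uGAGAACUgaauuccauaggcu
The 12 listed sequences carry 11 different seeds. The strand miR-150-5p is not among them, so the seed shown for Mir150 is that of its other arm alone. Only miR-146a-5p and miR-146b-5p share a seed, GAGAACU, and no other mature sequence among the 1738 in the RefSeq table has a seed of these 12. These strands are identical at 20 of 22 positions and differ by G18A and U21C, with miR-146a-5p given first and positions counted from its 5′ end.

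The hairpins of Mir142 and Mir142b, shown next with their mature strands in capitals, lie on opposite strands of the same stretch of chromosome 11, so a read from one is a read antisense to the other.
Mir142: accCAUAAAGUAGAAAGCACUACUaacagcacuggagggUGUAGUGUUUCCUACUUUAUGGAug
Mir142b: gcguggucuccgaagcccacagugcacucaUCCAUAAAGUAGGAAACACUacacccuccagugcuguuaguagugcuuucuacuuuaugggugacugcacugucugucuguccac
All 64 bases of the Mir142 hairpin (positions 87756864 to 87756927, plus strand, mm10) are the reverse complement of a stretch of the Mir142b hairpin (87756841 to 87756955, minus strand). The 20 bases of miR-142b are complementary to 20 bases of miR-142a-3p. On the same strand, miR-142b and miR-142a-5p share a run of 10 bases. Mir142 lies in the intron of the noncoding host gene Mir142hg, which is transcribed from the same strand as Mir142.

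The members together were a small part of the microRNA pool. They summed to 1077 CPM in pup 3 (exact 95% interval 1041 to 1115), against 856 CPM in pup 1 (820 to 893), where CPM is a gene's count times 1000000 over the library's summed same-strand gene counts. The mean was 967 ± 157 CPM (SD, n = 2, as for all values given with ±), or 0.0967% ± 0.0157 of counts. The intervals cover counting error only, since each is computed from the counts of a single library. The reads carry no molecular identifiers, so copies of the same molecule are not set apart. The sums behind CPM were 3012320 counts for pup 3 and 2459757 for pup 1, with opposite-strand reads such as those of Mir142 left out of them. In bulk tissue, fewer cells of a type and less RNA per cell cannot be told apart.

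**Figure D1:**
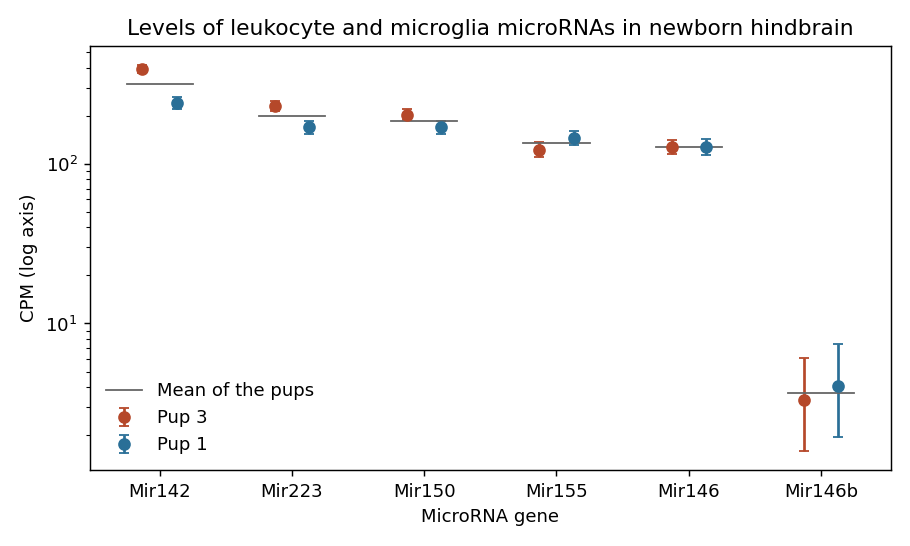
CPM on a log axis of the 6 genes with counts, with pup 3 left of pup 1 for each. Bars are exact 95% counting intervals and the grey line is the mean of the pups. Mir142 was highest in both pups, 5 genes lay between 123 and 391 CPM, and Mir146b lay below 5 CPM.

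The highest member was Mir142, the microRNA found across blood cells. No source names the strand of the count columns, which was read from the values. Reads opposite Mir142b numbered 1178 in pup 3, against 592 in pup 1, or 391 and 241 CPM, with a mean of 316 ± 106 CPM. On its own strand Mir142b had 0 counts in both pups, and a count of 0 is compatible with at most 3 counts (0.996 CPM in pup 3, 1.22 CPM in pup 1). The reads on the Mir142 strand were thus at least 393-fold those on the Mir142b strand in pup 3 and at least 197-fold in pup 1, with the floor of 3 counts taken per library. No read opposite any of the other 5 members was counted in either pup. Mir142 held 36.3% of the group's counts in pup 3 and 28.1% in pup 1.

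The myeloid microRNA Mir223 followed. It lies on the X chromosome (96242817 to 96242926, plus strand), within an exon of both annotated transcripts of the noncoding gene F630028O10Rik. It had 691 counts in pup 3, against 416 in pup 1, or 229 and 169 CPM, with a mean of 199 ± 42.6 CPM. The lymphocyte microRNA Mir150 was close to it. Mir150 had 611 counts in pup 3, against 416 in pup 1, or 203 and 169 CPM, with a mean of 186 ± 23.8 CPM. It lies on chromosome 7 (45121757 to 45121821, plus strand) outside any other annotated gene, 96 bases from the noncoding gene Gm45552. The ranges of Mir223 and Mir150 over the pups overlapped, and their ratio was 1.13 in pup 3 (exact 95% interval 1.01 to 1.26), against 1.00 in pup 1 (0.871 to 1.15).

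The microRNAs of immune activation were lower than these. Mir155, within an exon of both transcripts of its host gene Mir155hg on chromosome 16 (84714140 to 84714204, plus strand), had 370 counts in pup 3, against 357 in pup 1. Its level was 123 CPM in pup 3, against 145 CPM in pup 1, with a mean of 134 ± 15.8 CPM. Mir146, which encodes miR-146a and lies outside other genes on chromosome 11 (43374397 to 43374461, minus strand), had 385 counts in pup 3, against 314 in pup 1. That came to 128 CPM in each pup, with a mean of 127.7 ± 0.109 CPM. The pups' ranges of Mir155 and Mir146 overlapped, so their order was not resolved. With a pair of libraries, so small an SD as that of Mir146 is itself poorly known. The counting interval of Mir146 ran from 115 to 141 CPM in pup 3 and from 114 to 143 CPM in pup 1.

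The paralog Mir146b was far below Mir146, although both carry the same seed. Mir146b, in an intron of Mfsd13a on chromosome 19 (46342762 to 46342870, plus strand), had 10 counts in each pup, or 3.32 CPM in pup 3, against 4.07 CPM in pup 1. The count of Mir146 was 38.5 times that of Mir146b in pup 3 (exact 95% interval 20.7 to 80.9), against 31.4 times in pup 1 (16.8 to 66.1). The mature strands miR-146a-5p and miR-146b-5p begin with the same 17 bases, and the hairpins of both genes share an unbroken run of 21 bases, gcucugagaacugaauuccau. Reads placed at several loci are assigned to no gene in the tables. They were 42.0% of the reads of pup 3 and 40.2% of those of pup 1, and how many belong to either gene was not tested.

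The order of the members by CPM was thus Mir142, then Mir223 and Mir150, then Mir155 and Mir146, then Mir146b, and Mir142b had no count. How evenly the library preparation captured different sequences was not tested, so this is an order of counts. The pups did not overlap between Mir142 and Mir223, between Mir150 and Mir155, or between Mir146 and Mir146b. Against the genes that reached 10 counts, the members other than Mir146b and Mir142b stood in the middle of the range. The 395 genes that reached 10 counts in at least 1 library had a median of 181 CPM and middle quartiles at 13.9 and 1215 CPM, and the median of the 6 members with counts was 159.98 CPM. Mir142 was above 57.5% of these genes, Mir223 above 51.9%, Mir150 above 50.6%, Mir155 above 46.6%, Mir146 above 45.6% and Mir146b above 6.58%.

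**Figure D2:**
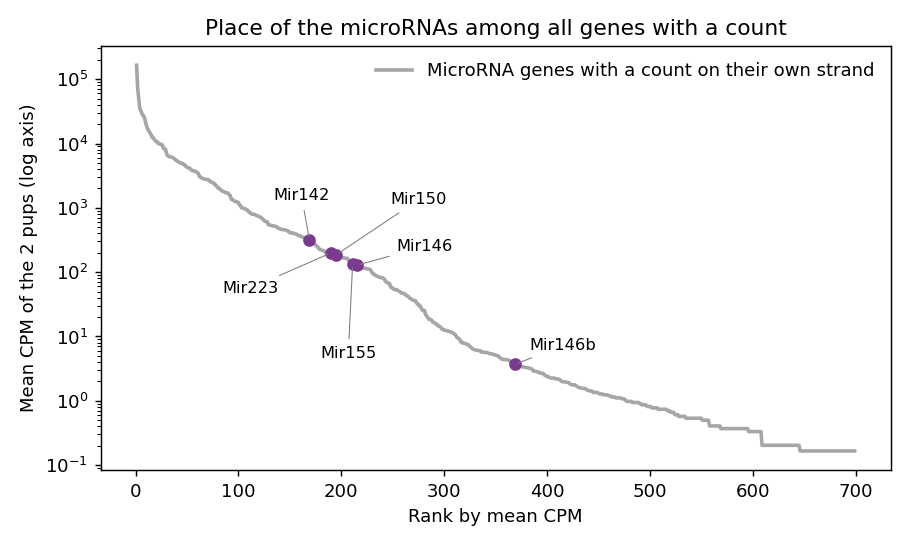
Mean CPM of both pups on a log axis against rank for the 699 genes with a count on their own strand. The 6 members with counts are marked, Mir142 at the place its opposite-strand reads give it. They stood between rank 169 (Mir142) and rank 215 (Mir146), apart from Mir146b at rank 369.

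In their precursors the members were mixed. GC content ran from 40.0% in Mir146 and 42.2% in Mir142 to 63.1% in Mir150, against a median of 51.0% over 1894 precursors. Of these precursors, 923 share a stretch of 20 bases with a gene at another locus. Of the members, only Mir146 and Mir146b do, each with 1 other locus. None of the 12 mature sequences was found within the RefSeq hairpin of another gene.

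Between the pups, Mir142 and Mir223 differed most clearly among the members, and both were higher in pup 3. Mir142 had a log2 fold of 0.65 for pup 3 over pup 1 (counting interval 0.50 to 0.79, adjusted p = 6.42e-19, exact binomial test with Benjamini-Hochberg adjustment over 396 genes). Mir223 had a log2 fold of 0.39 (0.21 to 0.57, adjusted p = 4.59e-05, same exact test). This test sets the counts of these libraries against counting error, scaled by TMM, and has no replicate on either side. With 1 library per pup, a difference between the animals cannot be told apart from one between the tissue pieces or the library preparations. Mir150 rose by the same exact test with a log2 fold of 0.21 (0.03 to 0.39, adjusted p = 0.04998), at the edge of the threshold of 0.05. Mir155 fell in pup 3, with a log2 fold of -0.29 (-0.51 to -0.08, adjusted p = 0.0148, exact binomial).

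Mir146 and Mir146b did not pass the test. Mir146 had a log2 fold of -0.05 (-0.27 to 0.17, adjusted p = 0.794, exact binomial). Mir146b had a log2 fold of -0.35, with an interval from -1.77 to 1.08 that its 10 counts per pup leave wide. In all, 4 of 6 tested members passed, 3 higher and 1 lower in pup 3. Over all 396 genes 47.2% passed, 26.0% higher and 21.2% lower in pup 3, so a call is common here. The members' median log2 fold was 0.08, against 0.02 over all genes tested.

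Under other scalings of the libraries the calls of Mir142 and Mir223 held, and those of Mir150 and Mir155 did not all hold. Mir150 had adjusted p = 0.0795 with DESeq2 size factors and Mir155 had adjusted p = 0.0519 with plain library totals, both by the same exact binomial test. Over 7 alternatives the adjusted p of this exact test ran from 0.0101 to 0.241 for Mir150 and from 0.00177 to 0.0519 for Mir155. The change of prior among them acts on the fold alone and cannot alter this p. The split of all calls was 103 higher and 84 lower in pup 3, and 77 higher and 105 lower with TMM over the filtered genes alone.

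Against the spread of all genes between the pups, the folds of the members lay within 2 SDs. The common biological coefficient of variation was 16.5% over 361 genes, or 0.34 as the SD of log2 folds of pup 3 over pup 1. The fold of Mir142 was 1.92 of these SDs, that of Mir223 was 1.15, that of Mir155 was -0.87 and that of Mir150 was 0.62. Of all genes tested, 14.6% had a larger absolute log2 fold than Mir142 and 28.8% a larger one than Mir223.

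**Figure D3:**
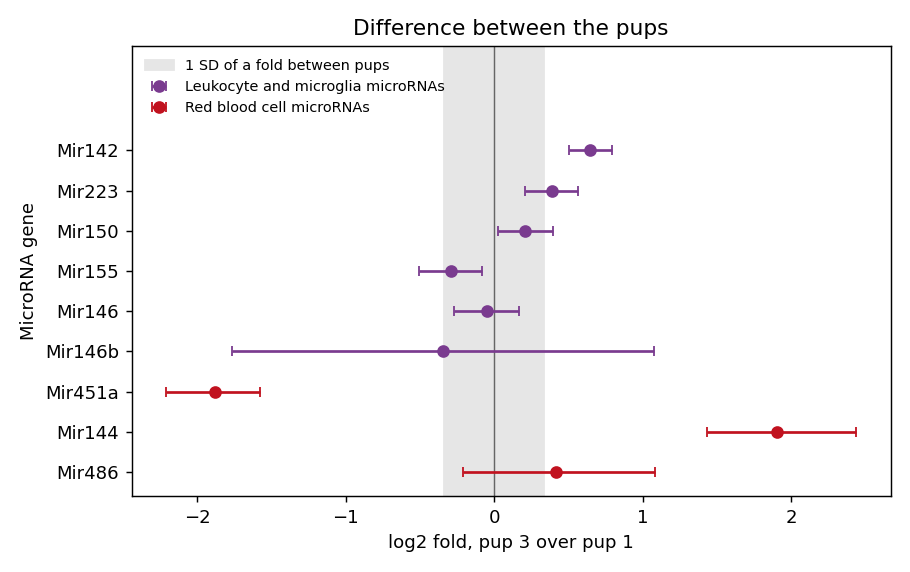
log2 fold of pup 3 over pup 1 for the 6 members with counts (purple) and 3 red blood cell microRNAs (red), with 95% counting intervals. The grey band is 1 SD (0.34) of a fold between the pups, and Mir142 at 0.65 and Mir223 at 0.39 are the members whose folds lie beyond it on the positive side.

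Ratios of members within a library do not depend on its scaling. Mir142 over Mir155 was 3.18 in pup 3 (exact 95% interval 2.83 to 3.59), against 1.66 in pup 1 (1.45 to 1.90). Mir223 over Mir155 was 1.87 in pup 3 (1.64 to 2.12), against 1.17 in pup 1 (1.01 to 1.35). Mir142 over Mir146 was 3.06 in pup 3 (2.72 to 3.44), against 1.89 in pup 1 (1.64 to 2.17). Each of these ratios was higher in pup 3, with intervals that did not overlap. Of the 10 pairs among the 5 members above 100 CPM, which is all but Mir142b and Mir146b, the intervals of the pups were apart for 6. These pairs reuse the same 5 genes, and the share over pairs of other genes was not computed. Over all 396 genes tested, 47.2% differed between the pups beyond counting error, but that is a share of single genes and not of pairs. The 6 of 10 pairs therefore cannot be read as a trait of the members. Mir142 over Mir223 was among the other pairs, at 1.70 in pup 3 (1.55 to 1.88), against 1.42 in pup 1 (1.25 to 1.62).

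**Figure D4:**
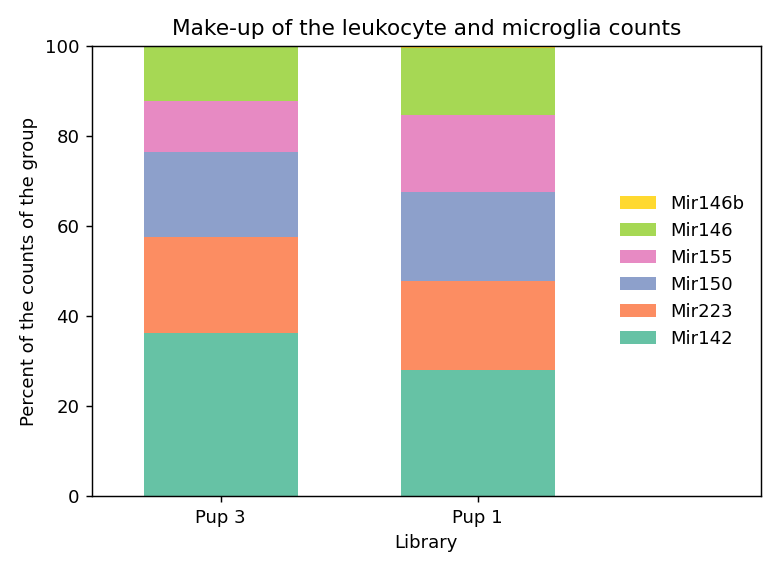
Share of the group's counts held by each member in pup 3 and pup 1, in percent, with each bar adding up to all of them. Mir142 held 36.3% in pup 3 and 28.1% in pup 1, while Mir155 held 11.4% in pup 3 and 17.0% in pup 1.

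Microglia and blood inside vessels are both possible places of these microRNAs in such tissue, so markers of blood and vessels are given here. The red blood cell list (Mir144, Mir451a and Mir486, all with counts) summed to 124 CPM in pup 3, against 165 CPM in pup 1. Its genes differed in direction. Mir451a had 113 counts in pup 3, against 329 in pup 1, for a log2 fold of -1.88. Mir144 had 202 counts in pup 3, against 42 in pup 1, for a log2 fold of 1.91. Mir486 had 58 and 34 counts in these pups and did not pass the test (0.42). The members together were 8.70 times the red blood cell list in pup 3 and 5.20 times in pup 1. Since Mir451a and Mir144 differed in opposite directions, the change of this ratio between the pups depends on the gene chosen. The endothelial microRNA Mir126a had 36931 CPM in pup 3, against 34216 CPM in pup 1, and the members were 0.0292 and 0.0250 times its level. The part of blood in the members' levels and in their differences between the pups was not tested.

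The tissue label was checked against other lists. Mir10a and Mir10b, encoded in Hox clusters active in the caudal neural tube, summed to 33740 CPM in pup 3, against 56575 CPM in pup 1. Both were lower in pup 3 by the exact binomial test, as were 21.2% of all genes tested. Their log2 folds were -0.65 for Mir10a and -1.09 for Mir10b. Whether the tissue pieces of the pups differed was not tested. Of the neuronal list, 8 of 9 genes had a row and all 8 had counts, which summed to 23784 CPM in pup 3, against 19428 CPM in pup 1. Mir137 of this list had 13229 CPM in pup 3, against 11588 CPM in pup 1. The genes for miR-124, abundant in neurons, had few, from 2 to 17 counts per gene and pup. Reads placed at several loci are assigned to no gene, so these counts do not give the level of miR-124. How many such reads belong to these genes was not tested. The liver microRNA Mir122 had 45.5 and 41.9 CPM in these pups, below each member other than Mir146b and Mir142b. The striated muscle list summed to 131 CPM in pup 3, against 105 CPM in pup 1. Nearly all of it was Mir206, with 125 CPM in pup 3, against 98.4 CPM in pup 1, close to the levels of Mir155 and Mir146. Of its 6 genes with a row, 3 had no count (Mir1a-1, Mir133a-1 and Mir133a-2). They belong to sets of numbered copies, and reads placed at several loci would not be counted for them. Their lack of counts therefore does not give the levels of these microRNAs, and the list's sum may miss such reads.

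Other microRNAs with known roles in immune responses, most of them also made outside blood cells, were far more abundant as a list. All 22 had counts, and they summed to 39275 CPM in pup 3, against 40119 CPM in pup 1. By the exact binomial test, 6 were higher in pup 3, 6 were lower and 10 did not pass. Over all 396 genes tested, 26.0% were higher and 21.2% lower in pup 3. The median log2 fold of the list was -0.06. The highest were Mir23a, with 9038 CPM in pup 3, against 7452 CPM in pup 1, and Mir342, with 4877 and 7232 CPM. The lowest were Mir181b-1, with 7.97 CPM in pup 3, against 8.54 CPM in pup 1, and Mir29b-1, with 5.31 and 6.10 CPM. Both have a paralog, Mir181b-2 and Mir29b-2, and reads placed at several loci are assigned to no gene. How many such reads belong to these genes was not tested. Among the genes of the list past the test, Mir27a had the highest log2 fold, 0.47 (0.29 to 0.65), and Mir181b-2 the lowest, -1.14 (-1.24 to -1.05).

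The genes closest in level to each member were found by distance on the log2(CPM + 1) scale over both pups. Mir223 was nearest to Mir873a, with 231 CPM in pup 3, against 171 CPM in pup 1, and to Mir190a, with 219 and 169 CPM. Mir142 was nearest to Mir672, with 319 CPM in pup 3, against 262 CPM in pup 1, and to Mir488, with 345 and 289 CPM. Mir150 was nearest to Mir6540 and Mir190a, Mir155 to Mir7689 and Mir505, Mir146 to Mir302d and Mir34b, and Mir146b to Mir7080 and Mir6240. The distances ran from 0.02 for Mir873a to 0.32 for Mir488, over 2 libraries.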

How the data were processed

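The authors deposited raw read counts per microRNA gene for each library, aligned to mouse assembly mm10 with GENCODE M4, per the deposited listings. How reads were aligned and trimmed is not given in the sources used here. The tables hold 3 count columns, taken from their values as either strand, strand of the gene and opposite strand, and 4 rows that name no gene. These rows, 58.0% of reads in pup 3 and 57.7% in pup 1, were left out. Symbols and positions came from GENCODE M21 (same assembly, 1894 of 1973 rows matched), and sequences from RefSeq.

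The members, lists and tests were chosen with earlier results of these data known. All members are named. So are, per member, the 2 genes nearest in level, and from the immune list the 2 highest, the 2 lowest and the extreme called folds.

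Counts were divided by the library's same-strand total (CPM). Genes reaching 10 counts in at least 1 library were compared by an exact two-sided binomial test on TMM-scaled totals (edgeR 4.0.16, R 4.3.3, all gene rows; scipy 1.17.1), with Benjamini-Hochberg adjustment at 0.05, after a test on simulated data. The simulated data held counting error only, so they do not show how the test behaves under the spread between pups. Folds use a prior of 0.5 counts, and intervals are exact Clopper-Pearson at 95%. With 1 library per pup, the quasi-likelihood test of edgeR could not be fitted between pups. The coefficient of variation is edgeR's common dispersion over both libraries as replicates. Alternatives were other scalings (plain totals, DESeq2 1.42.0 size factors), filters, strands, priors and totals, and each library alone.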

Additional observations from a re-analysis of the deposited data

How the results depend on the processing

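The summed level of the members was 967 CPM. It was 407 CPM over all reads of the tables, since that total includes reads with no gene, and 651 CPM with the opposite-strand reads of Mir142 left out. With each library alone it lay between 856 and 1077 CPM. Over TMM-scaled or either-strand totals it moved by less than the SD between the pups. The number of genes that differed between the pups was 187, and 178 to 196 under 6 alternatives. The number of members that differed was 4, and 3 or 4 under those alternatives: Mir150 missed the threshold under 4 of the 6 and Mir155 under 1. Mir142 and Mir223 passed and Mir146 and Mir146b missed it under each of the 6. TMM over the filtered genes was added after seeing the data. It lowered every log2 fold by 0.075, and plain totals raised every fold by 0.053. The fold of Mir146, which did not pass, was 0.00131 with plain totals and negative under the other scalings. No paired analysis was possible because the series has 1 group.

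With 10 counts per pup, the log2 fold of Mir146b had an interval from -1.77 to 1.08, and a difference within it was not detectable at this depth.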
